A study of Mus musculus with 6 samples.

Results

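The 42 genes described here carry glucose into the cell, break it down to pyruvate and pass pyruvate to lactate or to the mitochondrion. They comprise 3 glucose transporters, the enzymes from hexokinase to pyruvate kinase, the 4 bifunctional enzymes that control phosphofructokinase, lactate dehydrogenase with the lactate transporters, the mitochondrial pyruvate carrier, and pyruvate dehydrogenase with its kinases and phosphatases. Members were found by symbol among the RefSeq rows of the deposited table, which hold 22466 genes in 28890 rows. The 42 genes have 68 of these rows, and the row with the highest mean level stood for its gene.

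The study asked how cultured brown adipocytes burn their fuels with and without uncoupling protein 1 (UCP1), the heat-producing proton leak of brown fat mitochondria. Precursor cells came from the stromal-vascular fraction of interscapular brown adipose tissue of male 129SvEvS1 mice, either wild type (WT) or UCP1(-/-) (Ucp1-KO, on the same strain background), and were differentiated in culture with insulin, T3 and rosiglitazone. Each genotype has 3 cultures, independent of each other according to the series' design text, named by their replicate numbers: 10, 11 and 12 for WT, and 13, 14 and 15 for Ucp1-KO. RNA was sequenced from the fully differentiated cultures, and the Ucp1-KO allele still gives a remnant transcript. Values are RPKM, read numbers scaled to transcript length and library size. P-values set a difference between the genotypes against the spread between these cultures. An exact two-sided permutation test of 3 against 3 cultures cannot go below p = 0.10.

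Library totals recovered from the values lay between 14989604 and 17727653 reads. Ucp1, the targeted gene, read 1775, 981 and 1157 RPKM in WT 10 to 12 and 307, 409 and 398 RPKM in Ucp1-KO 13 to 15. The brown adipocyte label was checked on Fabp4, Adipoq, Plin1, Cidea and Cox7a1: all were present, with Plin1 in WT 11 the lowest at 390 RPKM, and none separated the genotypes. Markers of other cells were present too. The 4 macrophage markers summed to 145 RPKM in Ucp1-KO 14 against 11.4 to 44.1 RPKM in the other cultures, the 3 endothelial markers summed to 27.4 RPKM in WT 11 against 2.19 to 12.95 RPKM elsewhere, and the 6 preadipocyte and stromal markers summed to between 371 and 861 RPKM, most of it Col1a1 at 263 to 568 RPKM. Of 9 skeletal muscle markers, 7 were below the minimum level for a test, Ckm among them at 0.166 RPKM or less, and Acta1 and Mb read 2.19 to 20.1 RPKM. In bulk RNA, fewer cells of a type and less RNA per cell cannot be told apart.

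Glycolysis splits glucose into pyruvate in the cytosol, with most of the control at hexokinase, phosphofructokinase and pyruvate kinase. Pyruvate dehydrogenase, switched off by kinases (Pdk1 to Pdk4) and on by phosphatases (Pdp1, Pdp2), commits pyruvate carbon to the mitochondrion, and lactate dehydrogenase with the monocarboxylate transporters sends it out of the cell as lactate. Brown fat takes up much glucose when stimulated by insulin or noradrenaline, through the insulin-responsive transporter GLUT4 (Slc2a4) and the widely expressed GLUT1 (Slc2a1).

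Gapdh, which encodes glyceraldehyde-3-phosphate dehydrogenase and is widely used as a reference gene, was listed at 0 in all 6 cultures. Its neighbours in the pathway were abundant: Tpi1 averaged 543 RPKM and Pkm 445 RPKM over the 6 cultures. The authors kept reads of 50 bases that had 1 place in the genome, so the transcripts were cut into all windows of 50 bases and each was looked for at other annotated loci (GENCODE M21, GRCm38). The window of the Gapdh coding sequence with most copies is shown as an example. It lies on chromosome 6, minus strand, at chr6:125162898-125162947, within a coding exon, and 83 other loci hold the same 50 bases:
Gapdh, bases 655 to 704 of ENSMUST00000118875: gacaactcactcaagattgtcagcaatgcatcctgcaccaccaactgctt
All 950 windows within the Gapdh coding sequence had an exact copy elsewhere. Over the whole transcript, UTRs included, 1131 of 1371 windows (82.5%) did, at 216 loci, 212 of which hold an annotated pseudogene. The table has 22 further Gapdh rows from other annotations, and the highest level in any of them was 9.37 RPKM, in WT 10, on a transcript that retains an intron. The row of ENSMUST00000118875 itself held 6 to 12 reads a culture. Why the RefSeq row is at exactly 0 was not tested, no level of Gapdh mRNA was taken from the table, and no difference between the genotypes was computed for it.

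Gapdh was the extreme of a range. Shared windows made up 72.2% of Eno1 (enolase 1), 68.0% of Pgk1 (phosphoglycerate kinase 1) and 41.5% of Pgam1 (phosphoglycerate mutase 1). They made up between 14.4% and 30.5% of Aldoa, Ldha, Gpi1, Mpc1, Ldhb, Pdhb and Pkm. In all, 11 of 42 members had at least 10% of their windows shared, against 13.1% of all 21882 genes matched, and 3 had at least 50%, against 4.30%. By contrast, 24 members had no shared window, among them Slc2a1, Slc2a4, Hk1, Hk2, Aldoc, Bsg and Slc16a1. Levels were therefore compared between genes only with this share in view, and mainly within a gene between cultures.

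**Figure D1:**
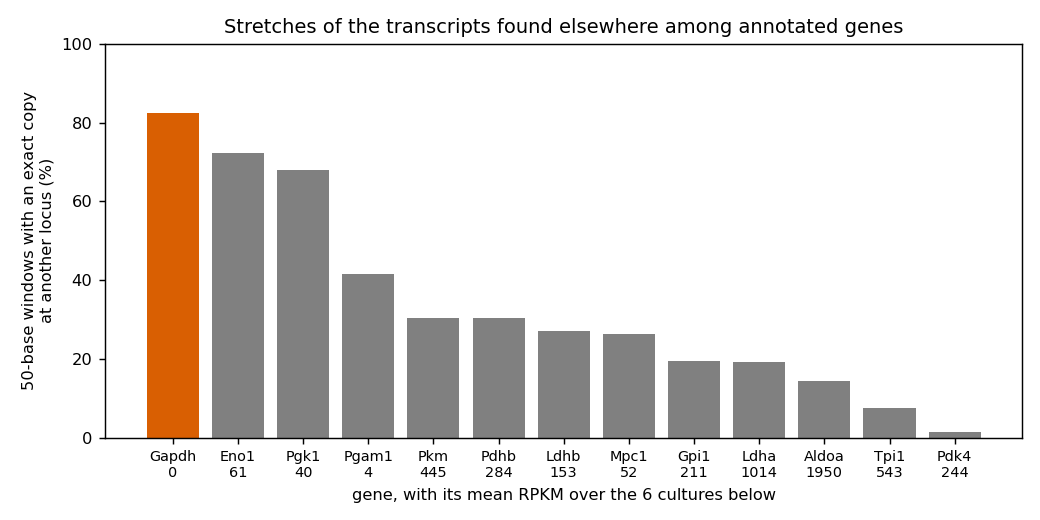
Share of 50-base windows with an exact copy at another annotated locus (y axis, percent) for the 13 members in which it is at least 1 percent, with the mean RPKM over the 6 cultures under each name. Gapdh, in orange, has the highest share, 82.5%, and a level of 0; Eno1 and Pgk1 follow at 72.2% and 68.0%.

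The other 41 members passed the minimum of 0.5 RPKM on average and spanned over 3 orders of magnitude. Bsg (basigin, the chaperone that takes lactate transporters to the cell surface) was the most abundant, at 2510 RPKM on average, and ranked 3rd of all genes. Aldoa (aldolase A) followed at 1950 RPKM, ranking 5th, and Ldha (lactate dehydrogenase A) at 1014 RPKM, ranking 24th. From hexokinase to pyruvate kinase, each step but that of Gapdh had an isozyme above 30 RPKM on average, except phosphoglycerate mutase, whose main form Pgam1 read 3.58 to 4.71 RPKM and has 41.5% of its windows shared. The lowest members were Eno2 (neuronal enolase) at 0.635 to 1.25 RPKM and Pgam2 (the muscle mutase) at 1.12 to 1.94 RPKM. The highest culture was under 1.5 times the lowest for 20 of 41 members. The ratio was at least 2 for 5 members: Hk3 at 14.3, Aldoc at 5.01, Slc2a3 at 3.86, Slc2a1 at 2.75 and Hk1 at 2.01.

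**Figure D2:**
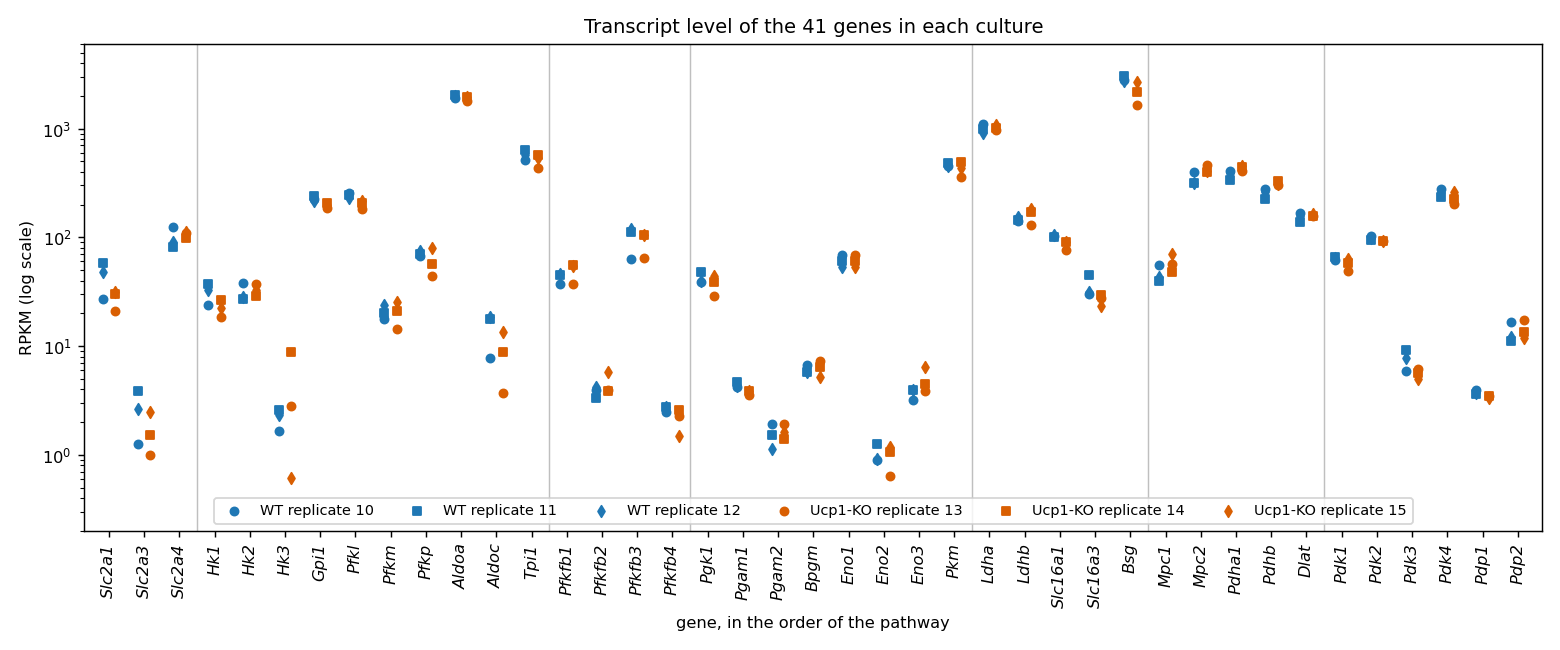
RPKM of the 41 members above the minimum (y axis, log scale) in the order of the pathway, with 1 point per culture, blue for WT and orange for Ucp1-KO; grey lines separate the 7 steps. Bsg, Aldoa and Ldha stand at the top, and Hk3 shows the widest spread, from 0.617 to 8.81 RPKM within Ucp1-KO.

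No member passed an adjusted p of 0.05 between the genotypes in limma, a linear model that borrows strength across genes to estimate the spread. There the smallest adjusted p of a member was 0.868, and 0% of all 16865 RefSeq rows tested passed. Ucp1 itself, at a log2 fold change of -1.78, also had an adjusted p of 0.868 in limma. The study's own comparison of the genotypes, with the DESeq2 algorithm, did list Ucp1 as differentially expressed, and listed none of the members. At an unadjusted p under 0.05, 1 of 41 members was higher in Ucp1-KO (2.44%, against 2.3% of all rows) and 2 were lower (4.88%, against 3.24% of all rows). Limma-voom on reads recovered from the RPKM values also gave 0 members at the adjusted threshold, with 1 higher (2.18% of all rows) and 3 lower (3.09% of all rows) at the unadjusted one. The median log2 fold change of the 41 members was -0.07 (25 below 0 and 16 above), against -0.0016 over all rows. Without overlap between the cultures of the genotypes, 8 members were lower in Ucp1-KO (Gpi1, Pfkl, Pgam1, Slc16a1, Slc16a3, Bsg, Pdk2 and Pdp1), which is 19.5% of those tested against 5.15% of all rows, and 1 was higher (Pdhb, 2.44% against 6.04%). The values below are thus differences of means with their errors, none of which stood out from the spread once all rows were taken into account.

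**Figure D3:**
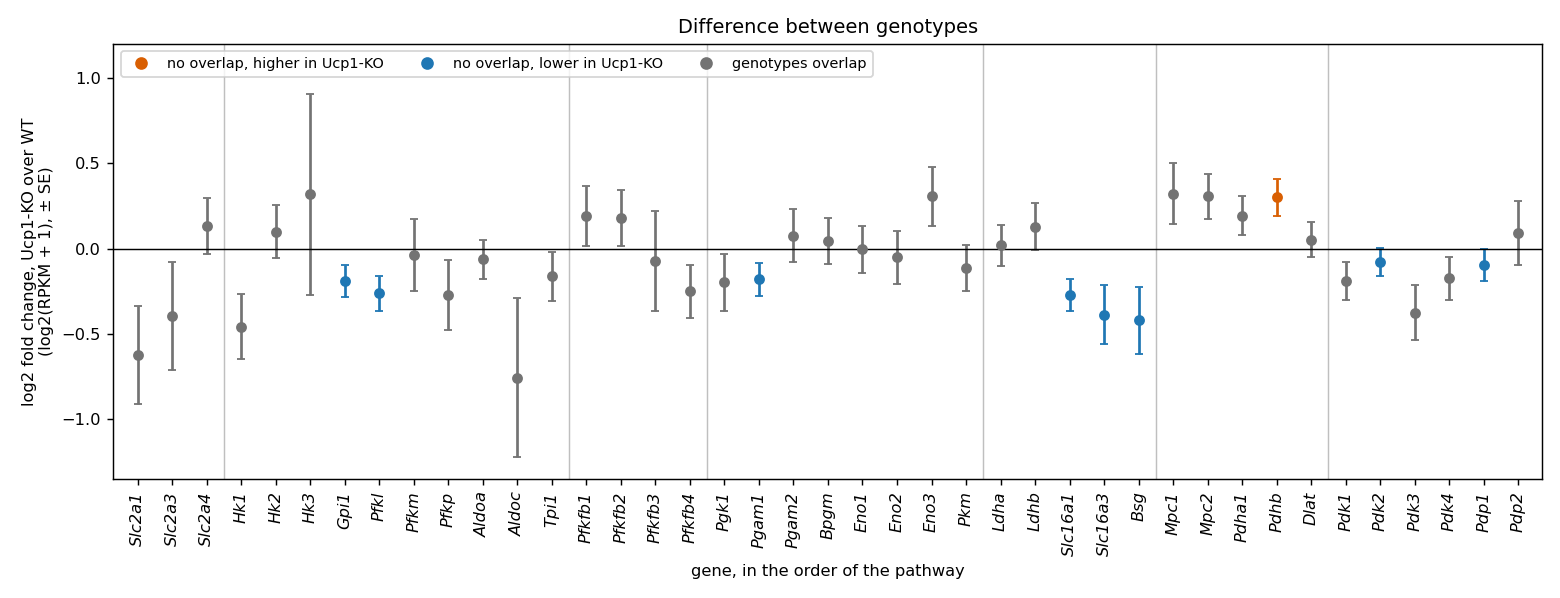
Log2 fold change of Ucp1-KO over WT on the log2(RPKM + 1) scale, with its standard error from limma, for the 41 members in the order of the pathway. The 5 genes of the pyruvate carrier and pyruvate dehydrogenase lie above 0; the 8 genes in blue are lower in Ucp1-KO with no overlap of the cultures, and Pdhb, in orange, is higher with none.

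Of the 3 glucose transporters among the members, Slc2a4 (GLUT4) had the highest level in every culture. It read 124, 81.6 and 90.2 RPKM in WT 10 to 12 and 109, 98.5 and 113 RPKM in Ucp1-KO 13 to 15. The genotypes overlapped fully, and the log2 fold change was 0.13 ± 0.16 (SE), with values from 0.011 (without WT 11) to 0.31 (without WT 10). Slc2a1 (GLUT1, on chromosome 4) read 27.2, 58.3 and 47.7 RPKM in WT and 21.2, 29.9 and 31.4 RPKM in Ucp1-KO, with a log2 fold change of -0.63 ± 0.29. WT 10 lay among the Ucp1-KO cultures, and the unadjusted limma p was 0.0666. Leaving out 1 culture gave fold changes from -0.94 without WT 10 to -0.40 without WT 11. The unadjusted limma p was 0.00333 in the first case (0.376 when adjusted) and 0.203 in the other. Slc2a3 (GLUT3, the transporter typical of neurons and white blood cells) stayed between 1.001 and 3.86 RPKM. Slc2a8 (GLUT8), a glucose transporter outside the 42 genes, read 7.91 to 14.4 RPKM.

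Slc2a4 made up 81.4%, 56.7% and 64.2% of the summed RPKM of these 3 transporters in WT and 83.1%, 75.8% and 76.9% in Ucp1-KO. The means of 67.4% ± 12.6 (SD, n = 3) and 78.6% ± 3.93 (SD, n = 3) differed by 11.2 percentage points, within the spread of the WT cultures (exact two-sided permutation p = 0.3, 0.75 when adjusted over the 12 families). The difference was 18.2 points without WT 10 (exact permutation p = 0.1, the smallest possible) and 5.86 points without WT 11 (exact permutation p = 0.5). The share was lowest in WT 11 and WT 12, the cultures with most Slc2a1.

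Hexokinase, which traps glucose as its phosphate, was split about evenly between Hk1, the widely expressed form, and Hk2, the insulin-regulated form of muscle and fat. Hk2 held between 40.4% and 63.7% of the hexokinase RPKM, with no separation of the genotypes (exact permutation p = 0.4). Its mean share was 7.69 percentage points higher in Ucp1-KO, and without 1 culture this ran from 3.74 (without Ucp1-KO 13) to 13.4 (without WT 10). Hk1 averaged 31.4 ± 6.71 RPKM (SD, n = 3) in WT and 22.5 ± 4.08 RPKM (SD, n = 3) in Ucp1-KO, and overlapped through WT 10 at 24.0 RPKM. Its log2 fold change was -0.46 ± 0.19, with an unadjusted limma p of 0.0508.

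Hk3, the hexokinase of white blood cells, read 1.64, 2.59 and 2.31 RPKM in WT and 2.84, 8.81 and 0.617 RPKM in Ucp1-KO. Ucp1-KO 14 stood far above all others and Ucp1-KO 15 was the lowest, so both extremes fell in the same genotype. The summed macrophage markers (Adgre1, listed under its older symbol Emr1, with Cd68, Csf1r and Ptprc) were also highest in Ucp1-KO 14, at 145 RPKM, and lowest in Ucp1-KO 15, at 11.4 RPKM. The part of these cells in the Hk3 level was not tested. The log2 fold change of Hk3 was 0.32 ± 0.59, and it turned to -0.34 without Ucp1-KO 14.

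In the upper pathway, the cultures of the genotypes did not overlap for Pfkl and Gpi1. Pfkl (liver-type phosphofructokinase, on chromosome 10), the main form of the enzyme that commits sugar to glycolysis, read 257, 243 and 228 RPKM in WT and 183, 208 and 217 RPKM in Ucp1-KO. Every WT culture exceeded every Ucp1-KO culture, with a log2 fold change of -0.26 ± 0.10 and an unadjusted p of 0.0404 in limma. Under median-of-ratios scaling that p was 0.0662, and without 1 culture it ran from 0.0282 to 0.107. Gpi1 (glucose-6-phosphate isomerase) read 223, 238 and 214 RPKM in WT and 185, 207 and 200 RPKM in Ucp1-KO, also with no overlap, at -0.19 ± 0.09. Pfkp (platelet type) and Pfkm (muscle type) overlapped between genotypes at 44.3 to 80.2 RPKM and 14.4 to 25.4 RPKM. Summed over the 3 forms, phosphofructokinase averaged 335 ± 7.53 RPKM in the WT cultures and 283 ± 40.4 RPKM in Ucp1-KO (SD, n = 3 each, exact permutation p = 0.1, the smallest possible). The make-up did not differ by more than its spread: Pfkl held 72.6% ± 2.69 in WT and 71.9% ± 4.29 in Ucp1-KO (SD, n = 3 each).

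Of the 10 members from hexokinase to triose phosphate isomerase, 8 had a log2 fold change below 0, and the median was -0.18. Aldoc, the brain-type aldolase and a minor form here, had a log2 fold change of -0.76 ± 0.47, which was -0.31 without Ucp1-KO 13 and -1.13 without WT 10. It read 7.85, 17.6 and 18.6 RPKM in WT and 3.71, 8.76 and 13.6 RPKM in Ucp1-KO. The genotypes overlapped, because WT 10 lay under 2 of the Ucp1-KO cultures. Aldoa held at least 99.1% of aldolase RPKM in each culture and differed by -0.06 ± 0.12 between the genotypes, and by -0.025 without Ucp1-KO 13.

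Control of phosphofructokinase runs through fructose 2,6-bisphosphate, made and degraded by the 4 Pfkfb enzymes. Pfkfb3, the form with the highest ratio of kinase to phosphatase activity, dominated with 59.1% to 68.9% of the family. Pfkfb1 (liver and muscle form) followed with 27.02% to 34.8%. Pfkfb3 read 62.6, 113 and 118 RPKM in WT and 64.9, 105 and 105 RPKM in Ucp1-KO. WT 10 and Ucp1-KO 13 were low by a similar amount, and the log2 fold change of -0.07 ± 0.29 changed sign without WT 11, WT 12 or Ucp1-KO 13. Pfkfb2 and Pfkfb4 stayed between 1.49 and 5.82 RPKM.

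**Figure D4:**
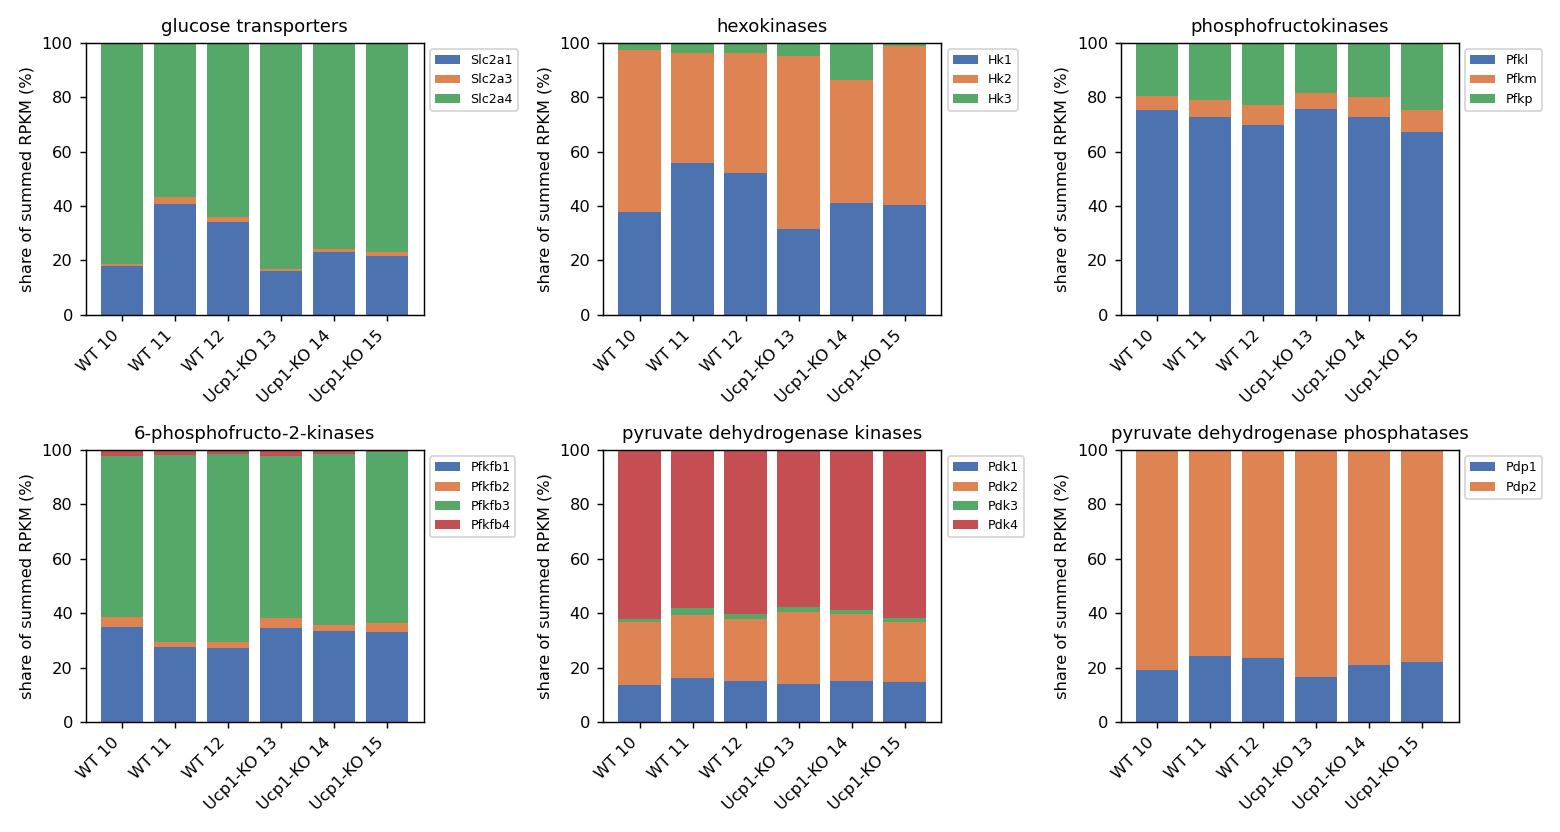
Share of each isozyme in the summed RPKM of its family (y axis, percent) in each of the 6 cultures, for 6 families. Slc2a4 leads the transporters (56.7% to 83.1%), Pfkl the phosphofructokinases (67.3% to 75.8%), Pfkfb3 the 6-phosphofructo-2-kinases (59.1% to 68.9%), Pdk4 the pyruvate dehydrogenase kinases (57.9% to 62.0%) and Pdp2 the phosphatases (75.6% to 83.5%); Hk1 and Hk2 share the hexokinases.

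From glyceraldehyde phosphate to pyruvate, 5 of 8 members tested had a log2 fold change below 0, with a median of -0.03. Pgam1 was lower in Ucp1-KO with no overlap, at 4.22, 4.71 and 4.34 RPKM against 3.58, 3.90 and 3.90 RPKM. Its log2 fold change was -0.18 ± 0.10 at 41.5% shared windows. Pgk1 (-0.20 ± 0.17, and -0.031 without Ucp1-KO 13), Eno1 (-0.0047 ± 0.14) and Pkm (-0.11 ± 0.14) overlapped. Eno1 held 87.5% to 94.4% of enolase RPKM although most of its windows are shared, and the muscle enolase Eno3 was at 3.20 to 6.38 RPKM. Bpgm, which makes 2,3-bisphosphoglycerate, best known from red blood cells, read 5.23 to 7.31 RPKM, while Hba-a1 and Alas2, markers of those cells, were at or below 0.344 RPKM.

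Pyruvate kinase is made in an M1 and an M2 form from the same gene, Pkm, by choice between 2 exons of equal length. The M2 form is typical of dividing cells and the M1 form of muscle and brain. The 2 RefSeq rows of Pkm, NM_001253883 for M1 and NM_011099 for M2, both have 2432 bases and differ only in this exon, so the difference of their reads is the difference between the 2 exons. The exons lie on the plus strand of chromosome 9 (GRCm38), M1 at chr9:59675029-59675195 and M2 at chr9:59675568-59675734, and are shown because these 167 bases carry all that the table holds on the choice. Capitals mark the 64 positions at which the exons differ:
Pkm M1 exon: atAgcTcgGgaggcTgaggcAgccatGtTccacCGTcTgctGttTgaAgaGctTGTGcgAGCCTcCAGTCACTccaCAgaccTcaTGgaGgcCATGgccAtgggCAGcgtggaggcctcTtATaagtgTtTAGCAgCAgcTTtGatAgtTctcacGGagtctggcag
Pkm M2 exon: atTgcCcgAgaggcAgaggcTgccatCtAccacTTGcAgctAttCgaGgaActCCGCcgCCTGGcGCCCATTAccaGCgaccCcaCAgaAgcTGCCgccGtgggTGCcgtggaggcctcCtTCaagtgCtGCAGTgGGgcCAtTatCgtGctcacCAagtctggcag
The M2 row held 206, 397 and 280 reads more than the M1 row in WT 10 to 12. In Ucp1-KO it held 65 more in culture 13, 129 fewer in culture 14 and 159 fewer in culture 15. The genotypes did not overlap, with means of 294 ± 96.3 and -74.3 ± 122 reads (SD, n = 3 each). At even coverage an exon of this length would take 966 to 1417 reads of the 14075 to 20637 on the M2 row. In that measure the M2 excess was 22.2% ± 6.87 in WT and -5.63% ± 11.04 in Ucp1-KO (SD, n = 3 each, exact two-sided permutation p = 0.1, the smallest possible). As a share of the RPKM of both rows, the M2 row moved by -0.48 percentage points, with an exact permutation p of 0.1 and 0.6 when adjusted over the 12 genes with several rows. The M2 exon was thus read more than the M1 exon in all WT cultures and in Ucp1-KO 13, and less in Ucp1-KO 14 and 15, by at most 29.6% of even coverage. Of the 216 windows that touch the M2 exon 34.7% have a copy elsewhere, against 4.63% for the M1 exon, and what this does to the balance of the 2 rows was not tested.

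The other genes with several RefSeq rows gave little on isoform use. Of 42 members, 30 have 1 row and 12 have 2 or more, 38 rows in all. Rows of a gene share most of their reads: in 10 of 12 genes the row with fewest reads held at least 90% of the reads of the row with most. Bsg is the clearest case. Its longer row, NM_009768, has 348 bases more than NM_001077184 but only 88 to 241 reads more, on a gene with 37414 to 70810 reads. The long form of basigin, known from the retina, was thus hardly read in these adipocytes. The longer Ldha row, NM_001136069, has 193 bases more and between 16 reads fewer and 10 reads more. Apart from Pkm, only Ldha separated the genotypes by row share, at 52.8% in every culture and a difference of -0.01 percentage points.

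At the end of glycolysis, lactate dehydrogenase transcripts were level between the genotypes, and transcripts for lactate export had lower means in Ucp1-KO. These are RNA levels and not fluxes: in the study's own measurements, mean lactate release was higher in Ucp1-KO than in WT cells. Ldha read 1113, 992 and 920 RPKM in WT and 978, 1005 and 1075 RPKM in Ucp1-KO, at 0.02 ± 0.12, with the cultures of both genotypes mixed. Ldhb (the heart form) read 130 to 182 RPKM, and Ldha held 85.4% to 88.8% of the pair. By contrast, all 3 members for lactate export were lower in Ucp1-KO with no overlap of the cultures, as were 5.15% of all rows. Slc16a7 (MCT2), a related transporter outside the 42 genes, read 0.469 to 1.10 RPKM and overlapped between the genotypes, at 0.16 ± 0.17.

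Slc16a1 (MCT1, monocarboxylate transporter 1, on chromosome 3 at 104638664 to 104658462 in GRCm38) read 104, 101 and 106 RPKM in WT. In Ucp1-KO it read 76.5, 90.1 and 90.3 RPKM. The WT cultures lay within 5 RPKM of each other and above every Ucp1-KO culture. The log2 fold change was -0.27 ± 0.10 with an unadjusted limma p of 0.0263, the smallest of the members, and an adjusted p of 0.868. Without 1 culture, the unadjusted p ran from 0.0244 to 0.0859. Slc16a3 (MCT4, the exporter of glycolytic cells) read 30.1, 45.3 and 31.7 RPKM in WT and 27.4, 29.5 and 23.3 RPKM in Ucp1-KO, at -0.39 ± 0.17, and at -0.21 without WT 11. Its highest Ucp1-KO culture came within 1 RPKM of the lowest WT culture. Summed over both transporters, the level was 139 ± 6.43 RPKM in the WT cultures and 112 ± 7.93 RPKM in Ucp1-KO (SD, n = 3 each, exact permutation p = 0.1, the smallest possible).

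Bsg, the partner of both transporters, read 2773, 3022 and 2754 RPKM in WT and 1650, 2180 and 2683 RPKM in Ucp1-KO. The 3 Ucp1-KO cultures spread over 1000 RPKM, and culture 15 nearly reached WT. The log2 fold change was -0.42 ± 0.20, and -0.24 without Ucp1-KO 13. Emb (embigin, a second partner protein of the transporters) read 21.7, 45.9 and 31.6 RPKM in WT and 18.0, 25.9 and 13.1 RPKM in Ucp1-KO, at -0.76 ± 0.32 with an unadjusted limma p of 0.0499 and an overlap of the genotypes. The 5 preadipocyte and stromal markers above the minimum also had log2 fold changes below 0, with a median of -0.33, and Pdgfra read 20.9, 22.3 and 18.98 RPKM in WT and 18.8, 17.1 and 13.2 RPKM in Ucp1-KO. The part of such cells in the transporter levels was not tested.

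For pyruvate entry into the mitochondrion, all 5 members had a log2 fold change above 0, with a median of 0.30, as had 49.6% of all rows. Of these 5, 4 overlapped between the genotypes, and none passed the adjusted test. Pdhb, the beta subunit of the first enzyme of pyruvate dehydrogenase (on chromosome 14), read 278, 226 and 260 RPKM in WT and 302, 327 and 310 RPKM in Ucp1-KO. No WT culture reached the lowest Ucp1-KO culture, at a log2 fold change of 0.30 ± 0.11 with an unadjusted p of 0.0280 in limma. That p ran from 0.0182 to 0.0999 when 1 culture was left out, and 30.3% of Pdhb windows are shared with 1 other locus, a pseudogene. Of the 2 pyruvate carrier subunits, Mpc2 had the higher RPKM, with no shared windows against 26.4% for Mpc1. Mpc2 read 402, 313 and 319 RPKM in WT and 464, 401 and 409 RPKM in Ucp1-KO. It overlapped by less than 1 RPKM, between WT 10 and Ucp1-KO 14, and differed by 0.31 ± 0.13.

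The alpha subunit Pdha1 averaged 380 ± 39.5 RPKM in the WT cultures and 433 ± 20.1 RPKM in Ucp1-KO (SD, n = 3 each), at 0.19 ± 0.11. Mpc1 differed by 0.32 ± 0.18 (0.18 without Ucp1-KO 15) and Dlat, the acetyl-transferring core of the complex, by 0.05 ± 0.10. Pdhx and Dld, subunits of the complex outside the 42 genes, were at 0.19 ± 0.12 and 0.20 ± 0.11. Each of these overlapped between the genotypes. WT 11 was the lowest of the 6 cultures for all 5 members and for Pdhx and Dld, and was also the culture with the highest stromal and endothelial sums, 861 and 27.4 RPKM. Without WT 11, the log2 fold change was 0.24 for Mpc2, 0.22 for Pdhb and Mpc1, 0.11 for Pdha1 and -0.024 for Dlat. The part of these other cells in the levels was not tested.

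Control of pyruvate dehydrogenase was dominated by Pdk4, the kinase raised by fasting and fatty acids, with 57.9% to 62.0% of kinase RPKM. Pdk4 read 280, 235 and 260 RPKM in WT and 204, 223 and 261 RPKM in Ucp1-KO, at -0.17 ± 0.13, and at -0.093 without Ucp1-KO 13. Pdk2 (the widely expressed kinase) was lower in Ucp1-KO without overlap, but by little: 104, 93.6 and 97.6 RPKM against 93.4, 92.5 and 93.3 RPKM, at -0.08 ± 0.08, and at -0.039 without WT 10. Pdk1, a kinase induced by low oxygen, differed by -0.19 ± 0.11 (-0.089 without Ucp1-KO 13) and Pdk3 by -0.38 ± 0.16 (-0.24 without WT 11), both with overlap. Among the phosphatases, Pdp2 (11.2 to 17.5 RPKM) exceeded Pdp1 in every culture. Pdp1 read 3.91, 3.61 and 3.71 RPKM in WT and 3.46, 3.51 and 3.33 RPKM in Ucp1-KO, without overlap, at -0.10 ± 0.09. Of these 6 genes, 5 had a log2 fold change below 0, with a median of -0.14.

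WT 10 was the lowest WT culture for 21 of 41 members (51.2%, against 56.1% of all rows tested). Ucp1-KO 13 was the lowest Ucp1-KO culture for 26 (63.4%, against 45.1%). Both held for 17 members (41.5%, against 33.9%), among them Slc2a1, Slc2a3, Hk1, Aldoc and Pfkfb3. Ucp1-KO 13 was the lowest of all 6 cultures for 19 members. The 10 hypoxia-responsive genes, which cells raise when oxygen is low through hypoxia-inducible factor (HIF), summed to 494, 720 and 638 RPKM in WT and to 371, 549 and 713 RPKM in Ucp1-KO, and were thus also lowest in the same 2 cultures. Their level was not used as a covariate, and their part in the members' spread was not tested. Of these 10 genes, 9 had a log2 fold change below 0, with a median of -0.36. The median was -0.33 for the preadipocyte and stromal markers and -0.41 for the endothelial markers, but 0.32 for the macrophage markers. The part of such cells in the levels of the hypoxia-responsive genes was not tested. Car9 (carbonic anhydrase 9), P4ha1 (prolyl 4-hydroxylase) and Ddit4 (an inhibitor of growth signalling) were lower at an unadjusted p under 0.05, as were 3.24% of all rows, and none had an adjusted p under 0.868 in limma. Car9 read 3.47, 13.2 and 7.43 RPKM in WT and 1.45, 2.46 and 3.47 RPKM in Ucp1-KO, at -1.27 ± 0.43. Vegfa, the 1 gene above 0, differed by 0.03 ± 0.27. The 15 regulators of the pathway, Hif1a, Epas1, Mlxipl and Txnip among them, gave no member at an unadjusted p under 0.05 and a median of -0.01.

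**Figure D5:**
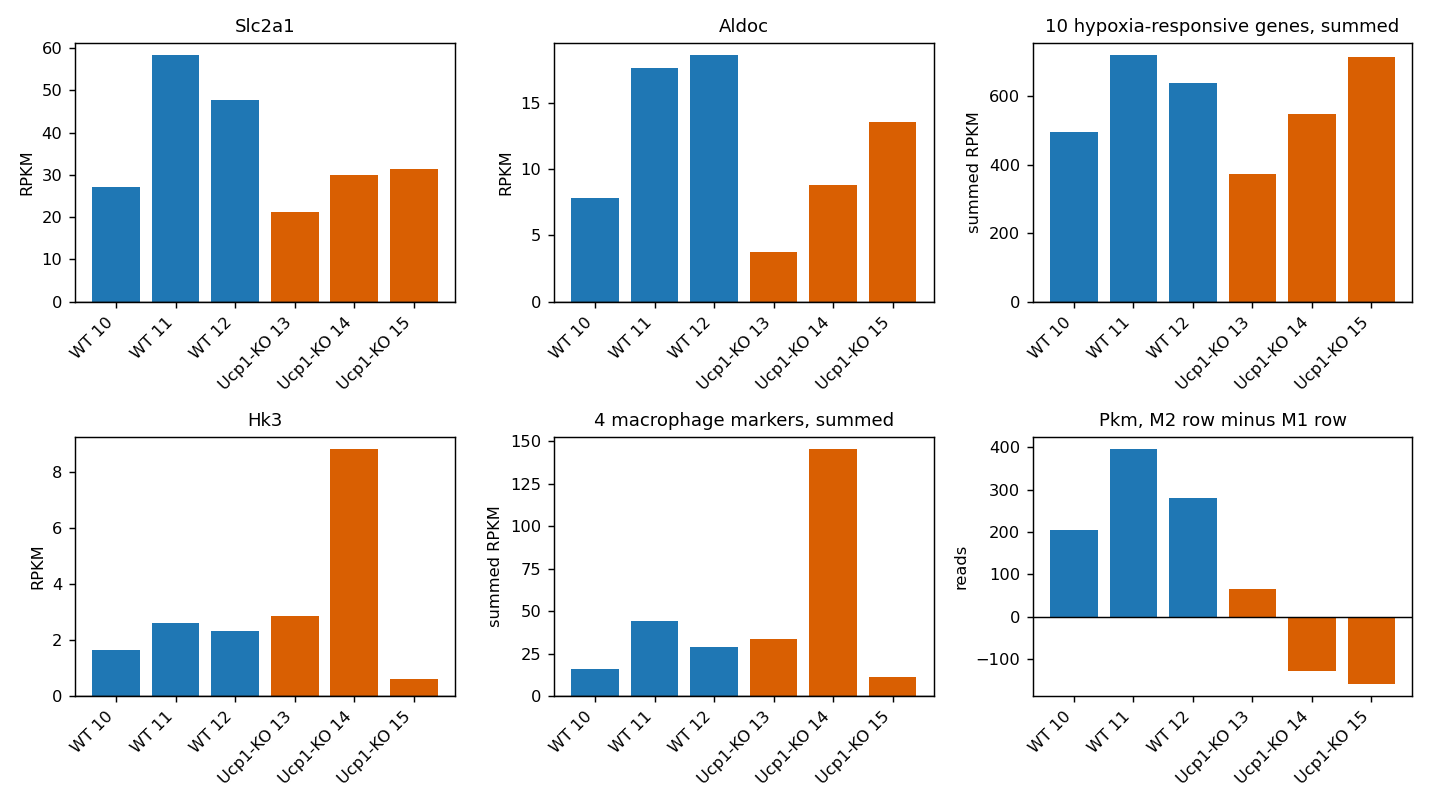
Bars give the value in each culture, blue for WT and orange for Ucp1-KO: RPKM of Slc2a1, Aldoc and Hk3, summed RPKM of the hypoxia-responsive genes and of the macrophage markers, and reads of the Pkm M2 row minus the M1 row. Slc2a1, Aldoc and the hypoxia-responsive sum are lowest in WT 10 and Ucp1-KO 13 within their genotypes, Hk3 and the macrophage sum are highest in Ucp1-KO 14, and the Pkm difference falls below 0 in Ucp1-KO 14 and 15.

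HIF binds a core of 5 letters, ACGTG or GCGTG, and several members are textbook targets. Only ACGTG was searched, on either strand, so sites with GCGTG were not counted. The 250 bases before each RefSeq transcription start (GRCm38.p6) were searched, with overlapping matches counted once, since CACGTG reads as the motif on both strands. Promoters were at hand for 38 of 42 members, and 17 of the 38 (44.7%) held ACGTG in at least 1 of their windows, against 18.5% of all 27025 genes. Members have 1.53 windows each on average and all genes 1.22, and by window the shares were 36.2% and 16.6%. All genes with a promoter window were counted, whatever their level in these cultures. The members were not matched to them in transcript level or base composition, so what the higher share reflects was not tested. The motif stood 3 times before Ldha, 2 times before Hk2, Pgk1 and Slc16a3, and once before Slc16a1, Slc2a1, Pdhb, Pkm and 9 others. ACGTG was absent from the searched bases of Aldoc. The promoters of Ldha (most motifs, no difference between genotypes) and Slc16a1 (smallest p) are shown with the motif in capitals, both on the plus strand, Ldha at chr7:46845554-46845803 and Slc16a1 at chr3:104638414-104638663. The Ldha window precedes the start at 46845804, the upstream of the 2 starts searched, and lies inside the span of the RefSeq gene record, which begins at 46842274:
Ldha promoter: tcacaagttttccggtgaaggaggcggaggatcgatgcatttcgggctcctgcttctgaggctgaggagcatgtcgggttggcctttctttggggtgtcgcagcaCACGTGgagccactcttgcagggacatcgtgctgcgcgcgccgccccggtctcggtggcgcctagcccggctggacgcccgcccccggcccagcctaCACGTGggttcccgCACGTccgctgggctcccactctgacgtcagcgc
Slc16a1 promoter: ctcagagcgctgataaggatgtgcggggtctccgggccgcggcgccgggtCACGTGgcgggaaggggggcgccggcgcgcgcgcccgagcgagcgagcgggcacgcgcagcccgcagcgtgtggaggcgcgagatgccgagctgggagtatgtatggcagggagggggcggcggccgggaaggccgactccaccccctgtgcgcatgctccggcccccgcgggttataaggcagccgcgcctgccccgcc
A match says only that these letters are present; binding was not measured. Members with the motif included genes on both sides of 0, such as Pdhb at 0.30 and Slc16a3 at -0.39.

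Among 29 other genes of the pathway, 18 reached the minimum level, 11 with a log2 fold change above 0 and 7 below. At an unadjusted p under 0.05 in limma, 3 were higher in Ucp1-KO (against 2.3% of all rows) and 1, Emb, was lower (against 3.24%). Fbp2 (fructose-1,6-bisphosphatase 2, which runs the phosphofructokinase step backwards) read 0.770, 0.926 and 1.05 RPKM in WT and 1.72, 2.29 and 2.01 RPKM in Ucp1-KO. The cultures did not overlap, as in 6.04% of all rows that were higher in Ucp1-KO without overlap. The log2 fold change of Fbp2 was 0.65 ± 0.13 with an unadjusted limma p of 0.00137 and an adjusted p of 0.868. These values rest on few reads, 17, 20 and 24 in WT and 36, 51 and 39 in Ucp1-KO. Tigar (listed as 9630033F20Rik), a phosphatase that lowers fructose 2,6-bisphosphate, read 9.11, 6.79 and 7.95 RPKM in WT and 10.4, 10.9 and 9.72 RPKM in Ucp1-KO, at 0.35 ± 0.12. Slc2a9 (a urate and sugar transporter) differed by 0.30 ± 0.12, from 1.41 to 1.97 RPKM on average. Pklr (pyruvate kinase of liver and red blood cells) and the testis forms Pgk2 and Ldhc were listed at 0 in all cultures.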

How the data were processed

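Per the study's methods, single-end reads 50 bases long were placed on NCBI build 38 of the mouse genome, those with 1 place were assigned to known transcripts, and the authors deposited the abundance as RPKM. The table has 168326 rows from several annotations and no read counts. The software was the Genomatix Mining Station, and no version is given in the sources used here. Library totals were inferred from the RPKM with GENCODE M21 transcript lengths, which the authors do not state as theirs; 93.8% to 94.0% of the Ensembl row values then came out whole within 0.05 reads. RefSeq row lengths were the smallest that made all reads of a row whole, or a multiple close to the GENCODE length, so their wholeness is no check, and 7 members had the GENCODE length.

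Genotypes (3 cultures each) were compared with limma 3.58.1 (R 4.3.3), empirical Bayes with an intensity trend, two-sided, on log2(RPKM + 1) over RefSeq rows with a mean of at least 0.5 RPKM, with Benjamini-Hochberg adjustment. The added 1 understates differences of low genes. Shares were compared by exact permutation of the cultures. Errors are SE for fold changes and SD for means. Windows of 50 bases came from GENCODE M21 transcripts, promoters from RefSeq (GRCm38.p6), both read with Python 3.11.15. The scripts were tested on simulated data. All members, the genes of the fixed lists and Ucp1 could be named. The members and lists were chosen with earlier results of these data known. Alternatives were another added constant, no minimum, other rows per gene, median-of-ratios scaling, limma-voom 3.58.1 and leaving out each culture.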

Additional observations from a re-analysis of the deposited data

How the results depend on the processing

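No paired analysis was possible because the genotypes share no replicate number. Under 12 alternatives, 6 of which left out 1 culture, 0 members passed the adjusted threshold. Members lower at an unadjusted p under 0.05 were 2, and 5 with median-of-ratios scaling (3.56% of all rows), 4 without a minimum level (2.43%) and 0 to 6 without 1 culture: 6 without WT 10 (7.44%) or Ucp1-KO 15 (2.03%), and 0 without WT 11 (0.901%), WT 12 (1.54%) or Ucp1-KO 13 (5.27%). Members higher were 1, and 2 with summed RefSeq rows (2.34%) and 0 to 4 without 1 culture: 4 without WT 10 (2.96%) or Ucp1-KO 13 (3.88%), and 0 without WT 11 (0.978%) or WT 12 (1.07%). Those higher with no overlap were 1, and 2 with median-of-ratios scaling (5.73%) and 1 to 6 without 1 culture. Those lower with no overlap were 8, and 7 with median-of-ratios scaling (6.1%) and 8 to 18 without 1 culture. Fewer cultures make an overlap less likely in all rows too: without WT 10, 18 members and 20.2% of all rows were lower with no overlap, and 6 members and 12.7% of all rows were higher. The median log2 fold change of -0.07 ran from -0.11 to -0.043 without 1 culture. Without 1 culture, the fold change moved over 1.5 times or turned for 33 of 41 members. The sign held in 30 of 41 members. Without 1 culture it turned for Hk3 (-0.34 to 0.96), Pfkm (-0.21 to 0.18), Pfkfb3 (-0.36 to 0.15), Pgam2 (-0.045 to 0.19), Bpgm (-0.051 to 0.16), Eno1 (-0.10 to 0.091), Eno2 (-0.14 to 0.076), Pkm (-0.22 to 0.012), Ldha (-0.045 to 0.092), Dlat (-0.024 to 0.12) and Pdp2 (-0.059 to 0.25), and with median-of-ratios scaling for Eno1 (0.0074). Differences of isozyme shares that turned, in percentage points, were those of Pfkl (-2.58 to 1.66), Eno1 (-3.12 to 0.0876), Slc16a1 (-1.04 to 3.19), Pdk4 (-1.83 to 0.233) and Mpc1 (-1.03 to 0.972). Row shares turned for Hk3 (-0.0411 to 0.281), Pfkfb2 (-0.333 to 0.881), Aldoa (-0.0071 to 0.0322), Eno3 (-0.165 to 0.688), Slc16a3 (-0.0689 to 0.0419) and Bsg (-0.0184 to 0.0050). The causes were not tested. At these depths 3 reads on 2000 bases come to 0.0846 to 0.1001 RPKM, and of the members without overlap Pgam1 rests on 106 to 144 reads a culture and Pdp1 on 207 to 277.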
